A study of Homo sapiens with 6 samples.

Results

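The genes described here are 9 receptor tyrosine kinases and the neurotrophin receptor NGFR, a set chosen by name because melanoma cells are known to use or to switch between these receptors. All 10 genes (KIT, EGFR, ERBB2, ERBB3, AXL, MET, FGFR1, IGF1R, PDGFRB and NGFR) were found by symbol among the 30015 genes of the table. Of these, 8 had a mean of at least 10 normalized counts over the libraries and were tested, while KIT and PDGFRB lay under that minimum. The question was how the transcripts of these receptors differed between melanoma cells with and without knockdown of EZH2, the catalytic subunit of Polycomb repressive complex 2.

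The cells were HMV-II, an established human mucosal melanoma line of vaginal origin, and poly-A RNA was sequenced in 6 libraries. The 3 Vector libraries came from cells with a wild-type genotype label that carried a scrambled control shRNA, and the 3 shEZH2 libraries from cells with a stable lentiviral shRNA against EZH2. Cells of both groups were made with puromycin selection and received no other treatment, and the table names 1 EZH2 shRNA, called sh1. Nothing in the labels says that replicates were separate cultures, so each p-value measures only the spread between these libraries, which may be technical.

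A receptor tyrosine kinase spans the cell membrane, pairs with another receptor when its ligand binds, and then phosphorylates tyrosines on which adaptor proteins assemble, so that the RAS-ERK and PI3K-AKT pathways are switched on. KIT and ERBB3 are associated with the differentiated melanocytic state of melanoma cells, whereas AXL, EGFR and NGFR are widely used as markers of dedifferentiated or drug-tolerant melanoma cells. NGFR, also called the p75 neurotrophin receptor, has no kinase domain and marks neural crest cells.

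EZH2 itself was measured first. Its level was 483.1, 436.6 and 551.8 normalized counts in the Vector libraries, given here and throughout in the order of replicates 1 to 3, against 237.1, 246.7 and 225.3 in the shEZH2 libraries. Every shEZH2 library lay below every Vector library, and the log2 fold change was -1.04 ± 0.14 (standard error; limma adjusted p = 0.01422). The libraries held between 13400290 and 19128939 reads. Of the 7 melanocyte markers, all were above the minimum, and their summed level was 75206.8 to 99757.6 normalized counts in Vector and 77745.8 to 83983.6 in shEZH2. Leukocyte markers were near the detection limit, with sums of 9.164 to 31.44 in Vector and 13.37 to 21.56 in shEZH2. Endothelial markers summed to 26.47 to 67.53 in Vector and 26.66 to 31.94 in shEZH2. Epithelial markers were higher, at 1308.6 to 1722.3 and 1569.9 to 1678.4. Fibroblast markers, 4 of 6 under the minimum, summed to 175.8 to 244.7 in Vector and 250.4 to 311.2 in shEZH2, without overlap. The 2 tested fibroblast markers moved in opposite directions, and COL1A2 had means of 65.46 normalized counts in Vector and 36.92 in shEZH2. In RNA from whole cultures, fewer cells of a type and less RNA per cell cannot be told apart.

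Vector replicate 2 stood apart from the other Vector libraries. Its mean chi-square per gene was 119 against replicate 1 and 116 against replicate 3, while replicates 1 and 3 differed by 2.15. Its log2 deviation from the other Vector libraries followed gene length, from a median of -0.54 among the shortest genes (median length 1407 bases) to 0.42 among the longest (10365 bases). Most of the receptors are long genes, so the 8 tested receptors are given with all 6 libraries, without Vector replicate 2, and with a smooth trend on gene length removed from every library. For other genes, the latter fits are given where they changed a call. Without Vector replicate 2, the Vector group was represented by the closely matched replicates 1 and 3, and the adjusted p-values of that fit rest on their small spread.

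With all 6 libraries, MET rose and ERBB3 fell at the threshold of the study, which asks for an unadjusted p below 0.05 and a change of more than 1.5-fold in either direction. That is 1 receptor higher, beside 7.55% of the 15251 genes tested, and 1 receptor lower, beside 7.07%. By limma with Benjamini-Hochberg adjustment over all genes, 0 of the 8 receptors passed an adjusted p of 0.05, beside 4.12% of all genes. At an unadjusted p under 0.05 there were 4 receptors (ERBB2, ERBB3, MET and NGFR). At an adjusted p of 0.05 DESeq2 called 1, ERBB3, and edgeR called 0. The shares of all genes at these criteria are not given here, so these counts are not set against a background. The groups did not overlap for 2 receptors, ERBB3 and NGFR, beside 34.8% of all genes. The log2 fold change was above 0 for 6 of the 8, with a median of 0.42 beside 0.04 over all genes tested.

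The single library mattered for several of these calls. Without Vector replicate 2, EGFR, AXL and MET rose at the same threshold, beside 7.05% of all genes, and no receptor fell, beside 5.64%. In that fit 6 receptors (EGFR, ERBB2, ERBB3, AXL, MET and FGFR1) passed an adjusted p of 0.05, beside 18.9% of all genes. With the gene length trend removed, EGFR, ERBB2 and MET rose, beside 6.9% of all genes, no receptor fell, beside 6.56%, and ERBB2 and MET passed the adjusted p, beside 8.66%. With array weights, which weight each library by its spread, EGFR (0.79), ERBB2 (0.61), AXL (0.94) and MET rose and ERBB3 (-0.34) was under the fold threshold. In that fit 1391 of the 15251 genes tested rose and 1260 fell. MET was the receptor called with all libraries, without Vector replicate 2, with the length trend removed and with array weights, and the ERBB3 log2 fold change was below 0 in each of them.

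**Figure D1:**
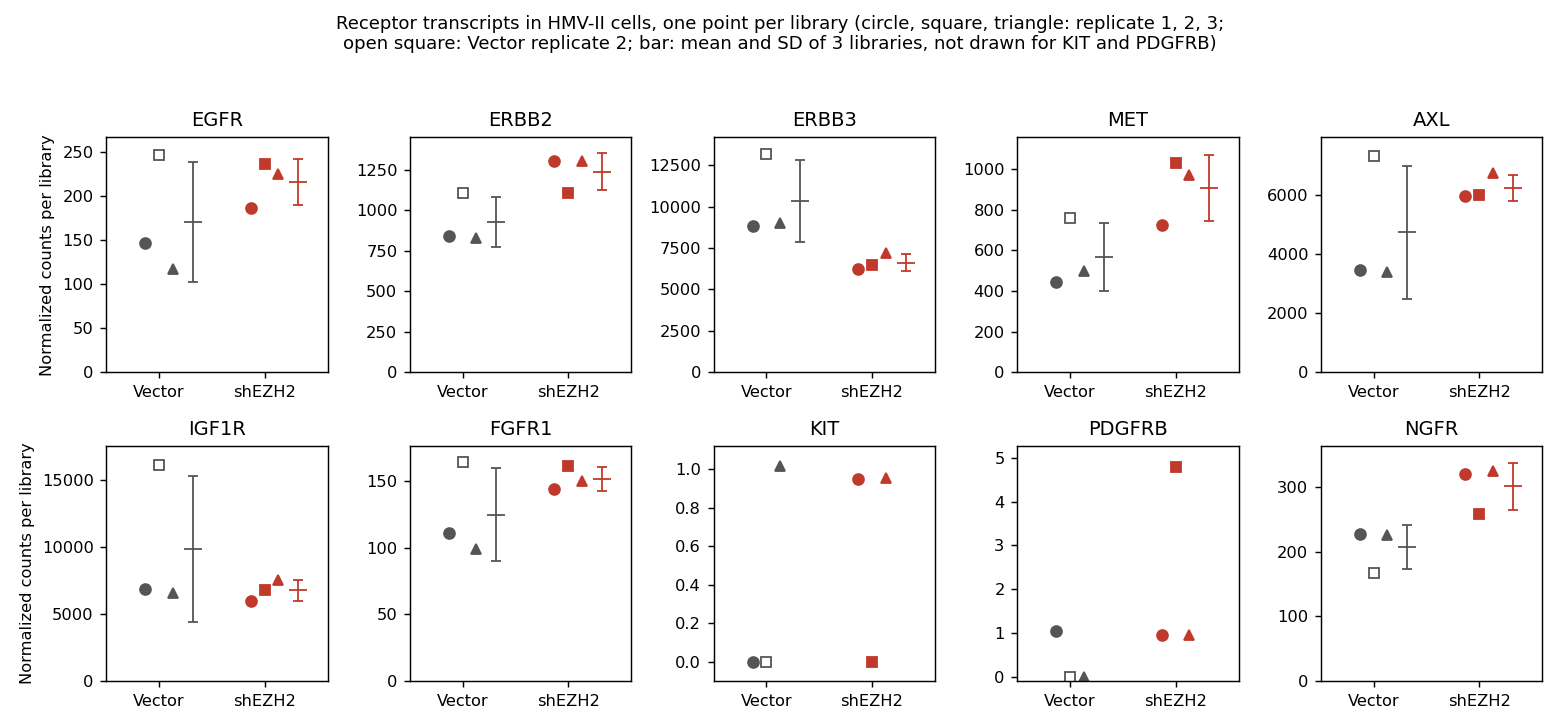
Normalized counts of the 10 receptors in each library, Vector in grey and shEZH2 in red, with replicates 1, 2 and 3 as circle, square and triangle, and the mean with its SD beside them (not drawn for KIT and PDGFRB). Vector replicate 2 (open square) is the highest Vector library for EGFR, ERBB2, ERBB3, MET, AXL, IGF1R and FGFR1, and all 3 shEZH2 libraries lie below the Vector range for ERBB3 and above it for NGFR.

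**Figure D2:**
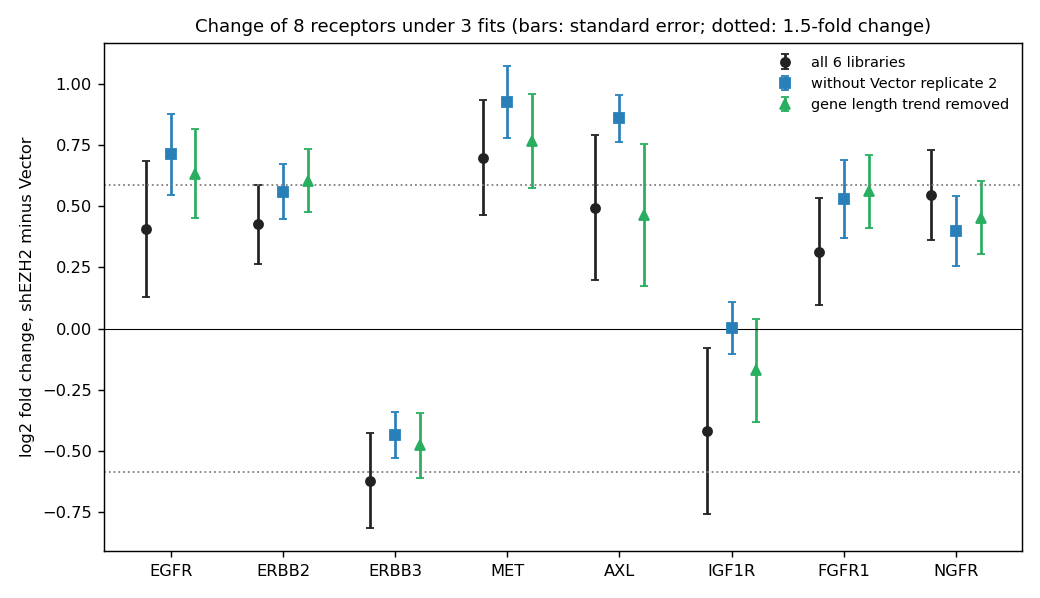
The log2 fold change (shEZH2 minus Vector) of the 8 tested receptors with its standard error, from limma with all 6 libraries (black), without Vector replicate 2 (blue) and with the gene length trend removed (green). MET lies above the dotted line that marks a 1.5-fold change in all 3 fits, ERBB3 lies below 0 in all 3, and IGF1R moves from -0.42 to 0.0036 when Vector replicate 2 is left out.

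The levels of different genes were compared per kilobase of gene length. In Vector cells the order was ERBB3 with 1143.5 ± 271.2 normalized counts per kilobase (SD, n = 3), AXL with 917.4 ± 436.7 and IGF1R with 707.5 ± 390.4. The ranges of these 3 neighbours overlapped, although the order was the same in 3 of 3 libraries. ERBB2 (89.81 ± 15.04) and MET (80.61 ± 23.77) formed the next pair, again with overlapping ranges, followed by NGFR (49.93 ± 8.259), and then by EGFR (13.59 ± 5.434) and FGFR1 (9.001 ± 2.514), which overlapped. KIT and PDGFRB were at the bottom, with means of 0.06101 and 0.04884 normalized counts per kilobase.

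In shEZH2 cells the top of the order was different. AXL came first with 1154.5 to 1307.3 normalized counts per kilobase, ERBB3 second with 688 to 794.6 and IGF1R next with 427.1 to 539.7. These 3 ranges did not overlap. MET and ERBB2 changed places, at 128.8 ± 22.81 and 120.0 ± 11.17 normalized counts per kilobase (SD, n = 3), but their ranges overlapped in both groups. NGFR, EGFR and FGFR1 kept their places.

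Because EZH2 acts at promoters, and Polycomb complexes are known for favouring CpG-rich ones, the promoters of the receptors are shown by their CpG content. RefSeq promoter sequences on GRCh38.p14, each 300 bases long, were matched by symbol for KIT, EGFR, ERBB2, AXL, MET, IGF1R and PDGFRB, with a pair of starts each for EGFR and AXL, giving 9 windows. Promoters of ERBB3, NGFR and FGFR1 were not analysed here. Within these sequences, the 30 bases richest in CpG before each gene's first start are printed 5′ to 3′ on the strand of the gene. Each CpG is in capitals, to show how widely the receptors differ.
IGF1R (chr15:98648504-98648533, plus strand): CGCGggccagggCGCGCGCGCGCGCGCGag
MET (chr7:116672060-116672089, plus strand): CGCGaccccCGCGgggccaggCGCGgCGCG
KIT (chr4:54657817-54657846, plus strand): CGggaagaagCGagaccCGggCGggCGCGa
EGFR (chr7:55018987-55019016, plus strand): tgcctcccCGCGcctCGgccCGCGCGagct
ERBB2 (chr17:39687918-39687947, plus strand): CGcagtCGCGgtacacCGgctcaCGgtCGc
PDGFRB (chr5:150155960-150155989, minus strand): CGcaCGCGtccaccctccctgcccCGcCGc
AXL (chr19:41219148-41219177, plus strand): CGgaggcaaagggggagccaggggCGgaga

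Over the whole 300 bases, IGF1R held 55 CpG, KIT 38, EGFR 33, MET 30, ERBB2 24, PDGFRB 11 and AXL 7, beside a median of 14 over 35116 promoters. The second start of EGFR held 1 CpG and that of AXL 17. KIT, which was not detectable above a few reads, and MET, which rose, both lay in the CpG-rich part of this range, and AXL lay below the median at its first start. The GC box GGGCGG was present on either strand in 6 of the 9 windows, beside 45% of all promoters, and the E-box CACGTG or CATGTG in 3, beside 17.6%. The AP-1 site TGACTCA or TGAGTCA was in 1 window, the second EGFR start, beside 4.95%, and the TEAD site GGAATG was in the second starts of EGFR and AXL, beside 14%. These are letter matches only, and the AP-1 and E-box matches of EGFR overlap by a few bases.

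The ERBB receptors pair with each other. ERBB3 binds neuregulins but has an impaired kinase, and ERBB2 has no known ligand, so the pair of them forms the neuregulin receptor of many cells, while EGFR binds EGF, TGFA and HBEGF. ERBB3 (chr12:56076799-56103505 on GRCh38) had 8851.8, 13165.5 and 8991.4 normalized counts in Vector against 6218.6, 6453.8 and 7182.5 in shEZH2. All 3 shEZH2 libraries lay below all Vector libraries, and the exact two-sided permutation p was 0.1, the smallest that 20 arrangements of 6 libraries can give. ERBB3 fell by 0.62 on the log2 scale (standard error 0.19; limma adjusted p = 0.1172). Without Vector replicate 2 the log2 fold change was -0.43 (limma adjusted p = 0.006975), short of the fold threshold, as it also was without shEZH2 replicate 1 (-0.58) and with the length trend removed (-0.48; limma adjusted p = 0.0651). Vector replicate 2 was 0.56 above the other Vector libraries on the log2 scale for ERBB3, beside a median of 0.30 for genes within 10% of its length.

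ERBB2 (chr17:39687914-39730426) had 843.9, 1106.1 and 830.8 normalized counts in Vector and 1307.3, 1105.2 and 1302.3 in shEZH2. The groups met at a single point, since Vector replicate 2 was level with shEZH2 replicate 2, and the other libraries were separate. On the log2 scale the difference was 0.43 ± 0.16 (standard error; limma adjusted p = 0.1759) with all libraries and did not pass the fold threshold, nor did the 0.56 (limma adjusted p = 0.003938) without Vector replicate 2. ERBB2 rose by 0.60 (limma adjusted p = 0.02954) with the length trend removed. ERBB2 shares bases with MIEN1 and PGAP3 on the other strand. MIEN1 had a mean of 427.5 normalized counts, which is 39.48% of the mean of ERBB2, with a log2 fold change of 1.04 that did not pass the test (limma adjusted p = 0.3861). PGAP3 had a mean of 282 normalized counts, 26.05% of that of ERBB2, with a log2 fold change of 0.08 (limma adjusted p = 0.786). How the counting treated reads in the shared bases is not given in the sources used here.

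EGFR (chr7:55019021-55211628) had 146.4, 246.8 and 117.1 normalized counts in Vector and 186.6, 236.4 and 225.3 in shEZH2. The highest of all 6 values was Vector replicate 2, and the shEZH2 libraries lay above the other Vector libraries. With all libraries the log2 fold change was 0.41 ± 0.28 (limma adjusted p = 0.4002), and it was 0.71 (limma adjusted p = 0.009706) without Vector replicate 2, a rise at the threshold. With the length trend removed it was 0.63 (limma adjusted p = 0.06983), also past the threshold of the study. For EGFR, Vector replicate 2 was 0.91 above the other Vector libraries on the log2 scale, beside 0.49 for genes of like length. ERBB4, the remaining receptor of the family and a second neuregulin receptor, was low, with 21.38 to 40.75 normalized counts in Vector and 13.33 to 31.94 in shEZH2, and its log2 fold change of -0.40 did not pass the test (limma adjusted p = 0.5701).

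MET is the receptor of hepatocyte growth factor and drives scattering and invasion of epithelial and melanocytic cells. MET (chr7:116672390-116798386) had 444.4, 757.9 and 499.9 normalized counts in Vector and 724.6, 1027.7 and 968.1 in shEZH2. shEZH2 replicate 1 lay just below Vector replicate 2, and no other pair of libraries overlapped. MET rose by 0.70 ± 0.24 on the log2 scale (limma adjusted p = 0.1373). The rise was 0.93 without Vector replicate 2 (limma adjusted p = 0.000909) and 0.77 after removal of the length trend (limma adjusted p = 0.04644). The call was lost without Vector replicate 1 (0.54) or 3 (0.63), and without shEZH2 replicate 2 (0.60) or 3 (0.64), each time with an unadjusted p above 0.05. Its relative MST1R was under the minimum of 10 normalized counts, with 5.821 at most.

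AXL is a receptor for GAS6 and belongs to the TAM family with TYRO3 and MERTK. AXL (chr19:41219203-41261766) had 3471.7, 7326.7 and 3386.4 normalized counts in Vector and 5950.1, 5994.6 and 6737.6 in shEZH2. Vector replicate 2 held the highest value of all, whereas Vector replicates 1 and 3 lay below every shEZH2 library. With all libraries its log2 fold change of 0.49 ± 0.30 (limma adjusted p = 0.3496) did not pass the test. Without Vector replicate 2, AXL rose by 0.86 ± 0.10 (limma adjusted p = 6.4e-05), the lowest adjusted p of the 8 receptors in that fit. Removing the length trend did not separate the groups, at 0.47 (limma adjusted p = 0.3453). Vector replicate 2 was 1.10 above the other Vector libraries on the log2 scale for AXL, while genes of like length had a median deviation of 0.00, and 97.3% of 1736 such genes deviated less. What set AXL apart in that library was not tested.

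TYRO3, the second TAM receptor, had 592.9, 799.8 and 583.4 normalized counts in Vector and 843.6, 805.7 and 932.8 in shEZH2, without overlap. Its log2 fold change of 0.40 was under the fold threshold with all libraries (limma adjusted p = 0.2016) and without Vector replicate 2 (0.55; limma adjusted p = 0.004653). TYRO3 rose by 0.59 with the length trend removed (limma adjusted p = 0.02252) and by 0.64 with array weights. MERTK, the remaining one, was close to the minimum, with 3.493 to 12.22 normalized counts in Vector and 3.809 to 9.547 in shEZH2, and was not tested.

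IGF1R is the receptor for insulin-like growth factors and signals mainly to PI3K and AKT. IGF1R (chr15:98648539-98964530) had 6852.5, 16146.0 and 6591.6 normalized counts in Vector and 5953.9, 6827.5 and 7523.4 in shEZH2. Apart from Vector replicate 2, the libraries of both groups shared one range. Its log2 fold change was -0.42 ± 0.34 with all libraries (limma adjusted p = 0.4769), 0.0036 without Vector replicate 2 (limma adjusted p = 0.9857) and -0.17 with the length trend removed (limma adjusted p = 0.6317). The deviation of Vector replicate 2 was 1.26 for IGF1R, above 95.8% of the genes of like length. INSR, the insulin receptor of the same subfamily, behaved alike in that library, with 221.7, 511.1 and 258.6 normalized counts in Vector and 254.2, 265.1 and 305.5 in shEZH2, and a log2 fold change of -0.17 (limma adjusted p = 0.7517).

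FGFR1 binds fibroblast growth factors. Its counts were low, at 110.8, 164.2 and 98.76 in Vector and 143.8, 161.3 and 149.9 in shEZH2. The groups overlapped only through Vector replicate 2. FGFR1 had a log2 fold change of 0.31 ± 0.22 (limma adjusted p = 0.4071) with all libraries, 0.53 (limma adjusted p = 0.03387) without Vector replicate 2 and 0.56 (limma adjusted p = 0.05581) with the length trend removed, short of the fold threshold each time. FGFR1 shares bases with the opposite-strand gene LETM2, whose mean was 17.27 normalized counts. FGFR4 was the FGF receptor with the most transcript per kilobase, at 164.5 normalized counts per kilobase in Vector and 196.2 in shEZH2. Its 3 shEZH2 libraries (983.6, 913.5 and 945.2 normalized counts) lay above the Vector libraries (803.1, 813.8 and 766.7), with a log2 fold change of 0.25 (limma adjusted p = 0.2516). FGFR2 (-0.19) and FGFR3 (0.02) had under 21 normalized counts in each library and passed no test, and the sign of FGFR3 turned under other scalings.

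KIT, the receptor of stem cell factor and a driver gene of some mucosal melanomas, had 0, 0 and 1 read in Vector and 1, 0 and 1 in shEZH2. PDGFRB, a receptor for platelet-derived growth factor found mainly on mesenchymal cells, had 1, 0 and 0 reads in Vector and 1, 6 and 1 in shEZH2. Neither was distinguishable from the detection limit at this depth, except for the 6 reads of PDGFRB in shEZH2 replicate 2. A count of 0 allows up to 3 reads, which is 2.396 to 3.493 normalized counts depending on the library, with counting error alone considered. No fold is therefore given for either. PDGFRA, the relative of PDGFRB, was as low, at 0 to 2.036 normalized counts.

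NGFR (chr17:49495293-49515017) had 228.0, 167.7 and 226.0 normalized counts in Vector and 320.9, 258.7 and 324.6 in shEZH2. All shEZH2 libraries lay above all Vector libraries (exact two-sided permutation p = 0.1), and Vector replicate 2 was here the lowest, not the highest. Its log2 fold change of 0.54 ± 0.18 (limma adjusted p = 0.1372) had an unadjusted p below 0.05 but was short of the fold threshold. It was 0.40 without Vector replicate 2 (limma adjusted p = 0.06868) and 0.45 with the length trend removed (limma adjusted p = 0.1064), and among the alternatives NGFR passed the threshold without Vector replicate 1 (0.62), Vector replicate 3 (0.61) or shEZH2 replicate 2 (0.65). Of the 15 listed partners of NGFR, among them co-receptors and adaptors, 13 were in the table and 10 were tested. There were 2 that rose, beside 7.55% of all genes, and 0 that fell, beside 7.07%. Without Vector replicate 2, and also with the length trend removed, 1 rose and 0 fell. The median log2 fold change was 0.28 beside 0.04 over all genes, but 0.09 without Vector replicate 2 and 0.14 with the length trend removed.

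MAGED1, an adaptor that binds the intracellular part of NGFR, had 1583.2, 1379.7 and 1514.0 normalized counts in Vector and 2415.7, 2316.6 and 2434.6 in shEZH2. It rose by 0.68 on the log2 scale (limma adjusted p = 0.03045) and kept its call in all 18 alternatives. RTN4R, the Nogo receptor that signals together with NGFR, rose by 0.61 (limma adjusted p = 0.05765), but lost its call without Vector replicate 2 (0.58), without shEZH2 replicate 2 (0.58), with the length trend removed (0.46) and with array weights (0.51).

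Ratios within a library do not depend on its scaling, although a length trend still enters them. The pairs given here were chosen after the values were seen, and no test was made on them. The ratio of AXL to ERBB3, per kilobase, was 0.6878, 0.976 and 0.6605 in Vector and 1.678, 1.629 and 1.645 in shEZH2. ERBB3 was thus above AXL in every Vector library and below it in every shEZH2 library. The ratio of ERBB3 to ERBB2 was 11.98, 13.59 and 12.36 in Vector and 5.431, 6.668 and 6.298 in shEZH2, a mean of 12.64 ± 0.8439 against 6.132 ± 0.6346 (SD, n = 3). Vector replicate 2 lay close to its group in this ratio.

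The ratio of MET to ERBB3 went from a mean of 0.06993 to 0.1757, that of NGFR to ERBB3 from 0.04619 to 0.09938, and that of AXL to IGF1R from 1.329 ± 0.08862 to 2.5 ± 0.1774, each without overlap of the groups. For AXL to IGF1R, Vector replicate 2 (1.227) was again near replicates 1 and 3 (1.37 and 1.39), since both genes were raised in that library. The ratios of AXL to MET (means of 11.04 and 9.562) and of ERBB3 to IGF1R (1.785 and 1.514) overlapped between the groups.

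**Figure D3:**
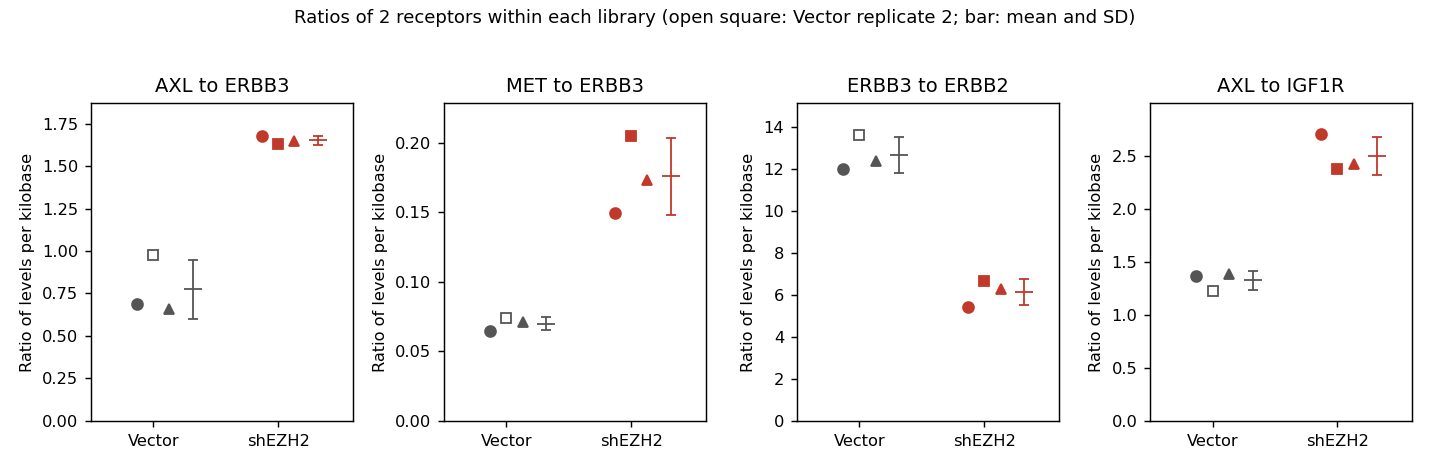
Ratios of the per-kilobase levels of 2 receptors within each library, with Vector in grey, shEZH2 in red, Vector replicate 2 as an open square, and the mean with its SD. AXL to ERBB3 is 0.6605 to 0.976 in Vector and 1.629 to 1.678 in shEZH2, and ERBB3 to ERBB2 is 11.98 to 13.59 in Vector and 5.431 to 6.668 in shEZH2.

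To place the receptors among their family, the per-kilobase levels of 54 receptor tyrosine kinases were summed in each library. The 9 kinases described here made up 53.47% ± 5.278 of that sum in Vector and 51.91% ± 1.677 in shEZH2 (SD, n = 3), a difference smaller than the spread. Within it, the share of ERBB3 went from 21.17% ± 0.8557 to 14.06% ± 0.4437, and that of AXL from 16.31% ± 2.998 to 23.21% ± 0.7433. ERBB3, IGF1R and AXL together held 49.89% ± 5.404 and 46.58% ± 1.618, a difference smaller than the spread of the Vector libraries. The shares of ERBB2 (1.682% and 2.308%) and MET (1.48% and 2.47%) stayed small, and that of EGFR was 0.245% and 0.3313%.

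**Figure D4:**
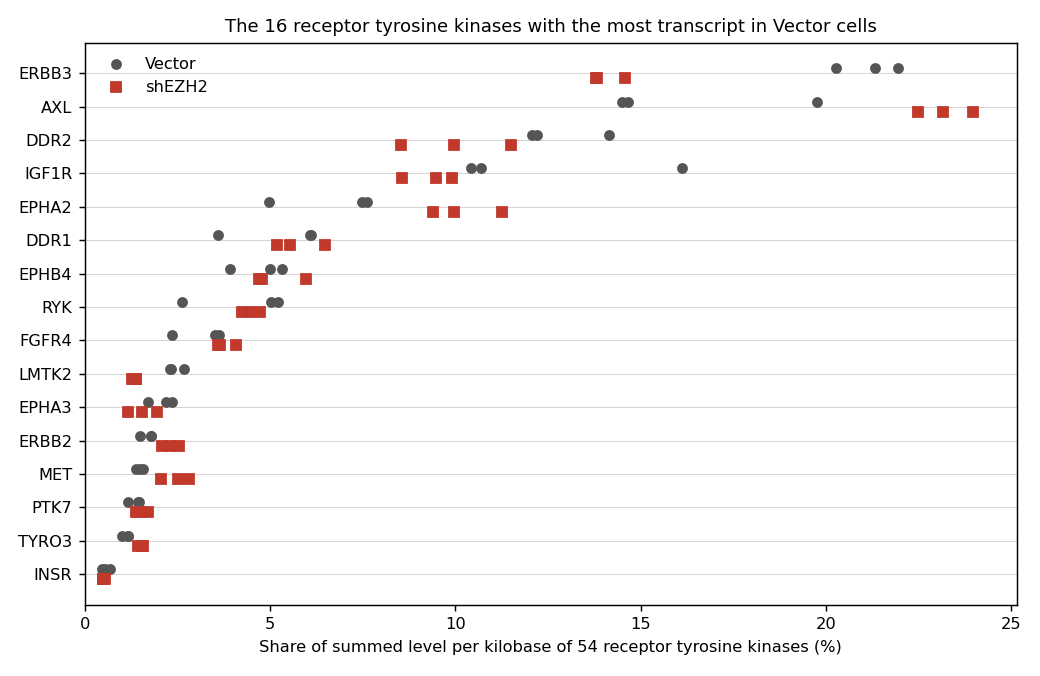
Share of the summed per-kilobase level of 54 receptor tyrosine kinases held by each of the 16 with the most transcript in Vector, as a percent, with 1 point per library (grey circles Vector, red squares shEZH2). ERBB3 lies at 20.26% to 21.95% in Vector and 13.8% to 14.57% in shEZH2, and AXL at 14.5% to 19.77% and 22.49% to 23.97%.

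Among the other receptor tyrosine kinases, 45 of 49 listed genes were in the table and 28 were tested. There were 3 that rose, beside 7.55% of all genes, and 4 that fell, beside 7.07%. The counts were 4 and 2 without Vector replicate 2, and 5 and 3 with the length trend removed. The median log2 fold change was 0.10, beside 0.04 over all genes, and was 0.18 and 0.21 in the other fits. EPHA2, an ephrin receptor, had 1431.6, 1486.8 and 1437.7 normalized counts in Vector and 2332.8, 2140.9 and 2133.9 in shEZH2, and rose by 0.60 (limma adjusted p = 0.03925; 0.62 without Vector replicate 2). The call of EPHA2 was lost in 6 of 18 alternatives, where the value fell just short of the fold threshold: 0.58 by DESeq2, 0.58 and 0.57 by edgeR with RLE and upper-quartile scaling, 0.58 with array weights, 0.56 without shEZH2 replicate 1 and 0.51 with the length trend removed. By its mean per-kilobase level it was in place 5 in Vector and place 3 in shEZH2, but DDR2 was above it in shEZH2 replicates 2 and 3 and IGF1R in shEZH2 replicate 3. EPHB6, a kinase-dead ephrin receptor with low counts, rose by 1.64 (limma adjusted p = 0.09815), and EPHB1 by 1.09 (limma adjusted p = 0.2131).

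The receptors that fell were LMTK2 (-0.88), a lemur kinase listed here by family, EPHB3 (-0.62), and the related LTK (-1.02) and ALK (-0.79), with limma adjusted p-values of 0.09043, 0.1199, 0.1975 and 0.1967. LMTK2 stayed called when any 1 library was left out, for example at -0.60 without Vector replicate 2. EPHB1 and ALK each lost their calls without any 1 of 5 libraries and LTK without any 1 of 4, over ranges of 0.60 to 1.49, -1.01 to -0.56 and -1.22 to -0.69, and EPHB3 lost its call without Vector replicate 2 (-0.56) or 3 (-0.57) or shEZH2 replicate 1 (-0.58). ALK also lost its call with the length trend removed (-0.71), and LMTK2 with array weights (-0.51). Of 17 alternatives, the call was lost in 10 for ALK, 7 for LTK and 9 for EPHB1. These included DESeq2 for ALK (-0.81) and LTK (-1.09), and edgeR for EPHB1 (0.94 to 0.96). DDR2, a collagen receptor whose per-kilobase level was nearest below AXL in Vector, had 6008.6, 10913.8 and 5872.8 normalized counts there and 4568.5, 6384.3 and 5836.4 in shEZH2, which did not pass the test (-0.39; limma adjusted p = 0.4036).

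Ligands made by the same cells can act on these receptors. Of 35 ligands listed, 27 were in the table and 14 were tested, of which 6 rose, beside 7.55% of all genes, and 1 fell, beside 7.07%. Without Vector replicate 2 the counts were again 6 and 1, beside 7.05% and 5.64%. The median log2 fold change of the 14 was 0.49, beside 0.04 over all genes tested, and 0.40 without Vector replicate 2, beside -0.01. The ERBB3 ligand NRG1 had 110.8, 114.1 and 95.71 normalized counts in Vector and 203.8, 282.7 and 266.4 in shEZH2. NRG1 rose by 1.21 on the log2 scale (limma adjusted p = 0.01776) while its receptor ERBB3 fell. FGF1, a ligand of all FGF receptors, had 38.69, 50.06 and 28.51 normalized counts in Vector and 87.6, 91.83 and 90.7 in shEZH2, a rise of 1.22 (limma adjusted p = 0.03832). Both calls held in all 18 alternatives.

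The other ligands that rose passed the threshold of the study but not the adjusted p. They were HBEGF (0.69), a ligand of EGFR; GAS6 (0.63), the ligand of AXL; FGF5 (1.11); and NTF3 (1.93), a neurotrophin that also binds NGFR, with limma adjusted p-values of 0.106, 0.212, 0.0966 and 0.1136. HBEGF was under the fold threshold without Vector replicate 2 (0.48), with the length trend removed (0.51) and with array weights (0.47). GAS6, at 43.78 to 59.38 normalized counts in Vector and 63.01 to 114.3 in shEZH2, lost its call without Vector replicate 1 (0.66) or 3 (0.51) and without shEZH2 replicate 1 (0.39) or 2 (0.69). The GAS6 call was also lost with a minimum mean of 50 (0.63), upper-quartile edgeR (0.65) and array weights (0.44). NTF3 was 4.657 normalized counts in Vector replicate 2 and 30.33 and 19.35 in the others, and its value without that library was 1.21.

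EGF was the ligand that fell, by 0.76 on the log2 scale (limma adjusted p = 0.1258), from 34.51, 44.24 and 40.73 normalized counts in Vector to 24.76, 19.96 and 24.82 in shEZH2. Its call was lost without Vector replicate 3 (-0.74) or shEZH2 replicate 2 (-0.66), where the unadjusted p was just above 0.05. FGF2 was -0.54 (limma adjusted p = 0.07143), short of the fold threshold, and past it without shEZH2 replicate 2 (-0.60). KITLG, the ligand of the undetected KIT, was 0.51 (limma adjusted p = 0.199), and rose by 0.61 without Vector replicate 2 and by 0.69 without shEZH2 replicate 1.

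PROS1, a second TAM ligand, was at 2641.7 to 3596.2 normalized counts in Vector and 2435.7 to 2911.5 in shEZH2, with a log2 fold change of -0.28 (limma adjusted p = 0.3484). The neurotrophin BDNF was 0.48 (limma adjusted p = 0.2138; 0.66, past the threshold, without Vector replicate 1), TGFA 0.31, NRG2 0.02 and NRG3 -0.20, none of which passed the test. HGF, the ligand of MET, had 2.036 normalized counts in Vector replicate 3 and 0 in the other libraries, so the ligand of MET was at the detection limit in both groups.

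**Figure D5:**
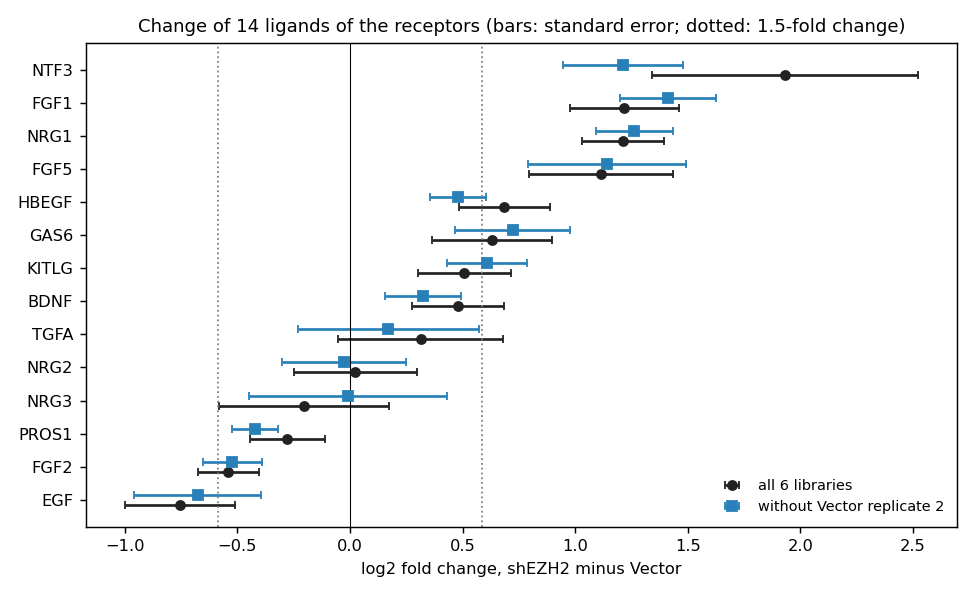
The log2 fold change (shEZH2 minus Vector) of the 14 tested ligands with its standard error, from limma with all 6 libraries (black) and without Vector replicate 2 (blue), and dotted lines at a 1.5-fold change in either direction. NTF3, FGF1, NRG1, FGF5 and GAS6 lie beyond the upper line in both fits, HBEGF with all libraries and KITLG without Vector replicate 2, and EGF lies beyond the lower line in both.

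Adaptors and docking proteins carry the signal from the receptor. Of 32 listed, 27 were tested, 2 rose, beside 7.55% of all genes, and 2 fell, beside 7.07% (3 and 1 without Vector replicate 2). The counts were near the background, and the median log2 fold change was -0.08, beside 0.04 over all genes, and -0.02 both without Vector replicate 2 and with the length trend removed. PTPN11, the phosphatase SHP2 that links receptors to RAS, had 6852.5, 10344.5 and 6679.2 normalized counts in Vector and 3696.3, 4895.8 and 4575.1 in shEZH2. It fell by 0.84 on the log2 scale (limma adjusted p = 0.07549), and by 0.63 without Vector replicate 2 (limma adjusted p = 0.002344). With array weights PTPN11 was just under the fold threshold (-0.58). PIK3R1, the regulatory subunit of PI3K, fell by 0.77 (limma adjusted p = 0.08795), but was under the threshold without Vector replicate 2 (-0.54), with the length trend removed (-0.58) and with array weights (-0.55). The guanine exchange factors VAV2 and VAV3 rose by 0.62 and 0.76 (limma adjusted p = 0.166 and 0.07867). VAV3 kept its call in all 18 alternatives, and VAV2 lost it without Vector replicate 1 (0.61) or 3 (0.46) and without shEZH2 replicate 1 (0.52) or 3 (0.54).

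Genes that inhibit the receptors or the pathways below them, or take part in receptor removal, made up the list of 31, all tested. There were 3 that rose, beside 7.55% of all genes, and 5 that fell, beside 7.07%. The median log2 fold change was 0.06 beside 0.04 (0.09 without Vector replicate 2 and 0.13 with the length trend removed). ERRFI1, the inhibitor MIG6 that binds the kinase domains of the ERBB receptors, had 556.3, 454.1 and 528.4 normalized counts in Vector and 1181.6, 1446.2 and 1397.7 in shEZH2. It rose by 1.39 (limma adjusted p = 0.00717). DUSP4, a phosphatase of the ERK pathway, had 17392.1, 20623.8 and 16928.1 normalized counts in Vector and 9277.0, 8873.4 and 9600.9 in shEZH2, and fell by 0.98 (limma adjusted p = 0.02003). These 2 genes kept their calls in all 18 alternatives and were the ones of this list under an adjusted p of 0.05.

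The other 6 calls of that list were lost without Vector replicate 2, where 3 of the 31 genes rose and 1 fell. DUSP6, another ERK phosphatase, rose by 0.73 with all libraries and was 0.50 without it, and SOCS3, a cytokine signalling inhibitor, rose by 0.69 and was 0.58 without it. The ubiquitin ligase CBLB (-0.61), the deubiquitinase USP8 (-0.64) and the receptor phosphatases PTPRJ (-0.76) and PTPRK (-0.59) fell with all libraries, and were -0.50, -0.52, -0.50 and -0.38 without it. CBLB (-0.53), USP8 (-0.56) and PTPRK (-0.44) were also under the threshold without shEZH2 replicate 1, and PTPRK (-0.64) lost its call without shEZH2 replicate 3, with an unadjusted p just above 0.05. With the length trend removed, SOCS3 (0.48), CBLB (-0.39), USP8 (-0.33) and PTPRK (-0.45) were under the threshold as well.

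The melanocyte markers moved in both directions beside the receptors. TYRP1 rose by 1.68 (limma adjusted p = 0.003169) and TYR fell by 0.97 (limma adjusted p = 0.05315; -1.22 without Vector replicate 2), both pigment enzymes. MLANA rose by 0.88 with all libraries, but was 0.39 without Vector replicate 2, and lost its call without any 1 of the shEZH2 libraries (0.86 to 0.90). The MLANA call was lost in 10 of 18 alternatives, among them edgeR (0.72 to 0.73) and array weights (0.42). MITF (0.23), the melanocyte master regulator, SOX10 (-0.26), DCT (-0.15) and PMEL (-0.10) passed no test with all libraries. They were under the fold threshold in all 18 alternatives. Without Vector replicate 2, SOX10 was -0.34 (limma adjusted p = 0.03019), and MITF, DCT and PMEL did not pass the adjusted p. Schwann and neural crest markers, the cells that NGFR marks in normal tissue, summed to 3998.1 to 5260.9 normalized counts in Vector and 5270.2 to 5356.6 in shEZH2. With all libraries, 0 of the 5 tested markers passed the threshold. Without Vector replicate 2, 1 of these markers fell, beside 5.64% of all genes, and with the length trend removed 1 rose, beside 6.9%. Their part in the NGFR values was not tested.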

How the data were processed

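RNA from 3 Vector and 3 shEZH2 libraries of HMV-II cells was analysed. According to the labels, featureCounts v1.5.0-p3 gave the authors' read counts, and their comparison used DESeq2 1.20.0. The deposited signal values are normalized counts, that is reads divided by a size factor of each library. They were whole multiples of 1 read in 100% of values (tolerance 0.01), so reads were recovered for count tests. The submitters' notes name hg19. Gene ends of the table matched RefSeq on GRCh38 for 29.8% of 20796 genes compared by symbol. They matched GENCODE on GRCh37 for 0.692% of 29478 genes compared by gene identifier. The annotations and gene sets differ between these shares, and coordinates are given on GRCh38. Whether counting used strand is not given in the sources used here. Columns with the authors' own fold changes and p-values were not used.

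The main test was limma 3.58.1 (R 4.3.3) on log2(normalized count + 1), with the variance allowed to follow the mean, two-sided, for genes with a mean of at least 10, with Benjamini-Hochberg adjustment over all 15251 genes tested. On this scale folds of low genes are understated. DESeq2 1.42.0 and edgeR 4.0.16 on recovered reads, other pseudocounts and minimums, a gene length correction (lowess span 0.3), array weights, a replicate block and each library left out were alternatives. Scripts were tested on simulated data. The named genes are EZH2, the 10 receptors, tested ligands, receptors of the same subfamilies, melanocyte markers, and up to 6 genes per direction of each other list among those past the threshold; DDR2 was added after its values were seen. Not every gene under this rule is reported here. The receptors, lists and tests were chosen with earlier results of these data known, and no p-value was adjusted over a list.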

Additional observations from a re-analysis of the deposited data

How the results depend on the processing

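The count of receptors called (2) was 4 with array weights, 0 at a log2 fold change above 1, and 0 at an adjusted p, and 1 to 3 with each library left out. Receptors under an adjusted p of 0.05 (0) were 1 by DESeq2, 2 with the length trend removed and 7 with array weights. They were 0 to 6 with each library left out, the 6 being without Vector replicate 2. Over all genes, 4.12% passed with all libraries, 8.66% with the length trend removed and 18.9% without Vector replicate 2. Shares for DESeq2 and array weights are not given here, so those counts are not set against a background. The 2229 genes called in all were 2651 with array weights, 798 at a log2 fold change above 1 and 624 at an adjusted p. They were 1622 to 2843 with each library left out. With a minimum mean of 50, fewer genes were tested, and the 7 ligands and the 7 other receptor kinases called became 3 and 3. GAS6 was still tested there but lost its call (0.63). The inhibitors called (8) were 5 with the length trend removed and 4 with array weights, and the NGFR partners (2) were 1 with the length trend removed. With each library left out, the ranges were 5 to 7 for ligands, 4 to 6 for other receptor kinases, 3 to 5 for adaptors, 4 to 8 for inhibitors and 1 to 2 for NGFR partners.

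Directions turned for IGF1R with array weights (0.12) and without Vector replicate 2 (0.0036), for INSR with the length trend removed (0.0124), array weights (0.2844) and without Vector replicate 2 (0.1942), and for ERBB4 (0.1331) and NRG3 (0.1422) with array weights. NRG2 turned with the length trend removed (-0.0429) and without Vector replicate 1 (-0.0111) or 2 (-0.0247) and shEZH2 replicate 1 (-0.1500) or 3 (-0.0556). FGFR3 turned with DESeq2 (-0.0000), upper-quartile edgeR (-0.0067), the length trend removed (-0.0273) and without shEZH2 replicate 3 (-0.0554). With each library left out, these log2 fold changes ranged from -0.6426 to 0.0036 for IGF1R, -0.4065 to 0.1942 for INSR, -0.1500 to 0.2770 for NRG2 and -0.0554 to 0.0637 for FGFR3. The cause of these changes was not tested. Whether the replicate numbers pair the libraries could not be decided. Deviations from the group mean correlated at 0.275, 0.219 and -0.111 for same-numbered libraries, and at -0.310 to 0.250 for the others. With 3 libraries per group, such deviations sum to 0 in each group, so these correlations depend on each other. With a replicate block, 2 receptors were called, as without it, 0 passed the adjusted p, and 2434 genes were called in all.

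Of 18 alternatives, the MET call held in 14, the ERBB3 call in 14, and FGFR1 was called in none. KIT and PDGFRB are limited by depth.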
